A study of Danio rerio with 16 samples.

Results

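The genes described here are the heat shock proteins and co-chaperones of the zebrafish heart ventricle. They were chosen by symbol, as genes whose names begin with hsp, dnaja, dnajb, dnajc or bag and a family number or letter. Of 93 such symbols in the table, 86 had at least 10 counts in at least 2 samples and were tested, and 7 (hspa12a.1, hspa12a.2, hspb15, hspb9, hspa4l, dnajc22 and dnajb13) fell below that minimum. The 86 are 7 small heat shock proteins, 15 Hsp70 genes, 4 Hsp90 genes, the 2 subunits of the mitochondrial chaperonin, 5 DnajA, 13 DnajB and 31 DnajC genes, 7 Bag genes and 2 genes of Hsp-binding co-chaperones, out of 18949 genes tested and 31351 listed.

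Bulk RNA-seq was made from heart ventricles of adult fish. The nr4a1 mutants carry the nc40 allele, made with CRISPR/Cas9, in which 1 inserted base pair in the second exon brings a premature stop codon into this nuclear receptor gene. Mutants and wild-type controls were sampled uninjured (called 0 dpci, for days post-cryoinjury) or 2, 7 or 21 days after freezing part of the ventricle. Each of these 8 conditions has 2 samples. The study calls its samples biological replicates, but whether a sample is 1 ventricle or a pool of several is not given in the sources used here. The p-values rest on a spread between samples that is shared over genes and all 8 conditions. How far that spread describes single fish is therefore not known.

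Chaperones bind unfolded proteins and help them to fold, to be kept soluble or to be handed to degradation. Hsp70 proteins do this in cycles of ATP hydrolysis that J-domain proteins (the Dnaj families) start and that nucleotide exchange factors, such as Bag and Hsp110 proteins, complete, and Hsp90 acts on later folding steps of selected clients. Some copies are made at all times and others are switched on by heat shock factors under stress. In heart muscle, small heat shock proteins, Hsp90 and the Bag3 complex look after the sarcomere.

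Total counts were 14333475 to 27668498 per sample, and the 86 genes held 0.911% to 1.33% of them. Values are given as CPM, counts scaled to library size with TMM factors, for sample 1 and then sample 2 of a condition. They are compared within a gene, because gene lengths were not used. A gene was called where edgeR's quasi-likelihood test gave a Benjamini-Hochberg adjusted p under 0.05 over all 18949 genes and an absolute log2 fold change (log2FC) over 0.5, and "rose", "fell", "higher" and "lower" are used in this sense. The targeted gene, nr4a1, was counted in all samples. At 0 dpci it was at 56.6 and 54.9 CPM in mutants and 19.4 and 22.0 CPM in wild type. The direction of this difference depended on the day. The gene was higher in mutants at 0 dpci (log2FC 1.43) and lower at 7 dpci (log2FC −0.68). The log2FC values at 2 and 21 dpci, −0.04 and 0.27, were not called. A count per gene does not check an allele that differs by an insertion. Of the cardiomyocyte markers of a ventricle, the cardiac myosin light chain gene myl7 was at 6382 CPM or more in all 16 samples.

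Between genotypes, the direction of the chaperone genes depended on the day. At 0 dpci, 13 of the 86 were higher in mutants, against a background of 11.9% of all genes tested, and 8 were lower, against a background of 11.8%. At 2 dpci, 21 were higher (background 8.35%) and 3 lower (background 8.5%). At 7 dpci, 11 were higher (background 7.03%) and 2 lower (background 5.94%). At 21 dpci the picture had turned, with 1 gene higher (background 9.49%) and 24 lower (background 6.83%). As shares of the 86 genes, the higher calls made up 15.1%, 24.4%, 12.8% and 1.16% at 0, 2, 7 and 21 dpci, and the lower calls 9.3%, 3.49%, 2.33% and 27.9%. At 0 dpci the shares were thus near those of all genes.

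**Figure D1:**
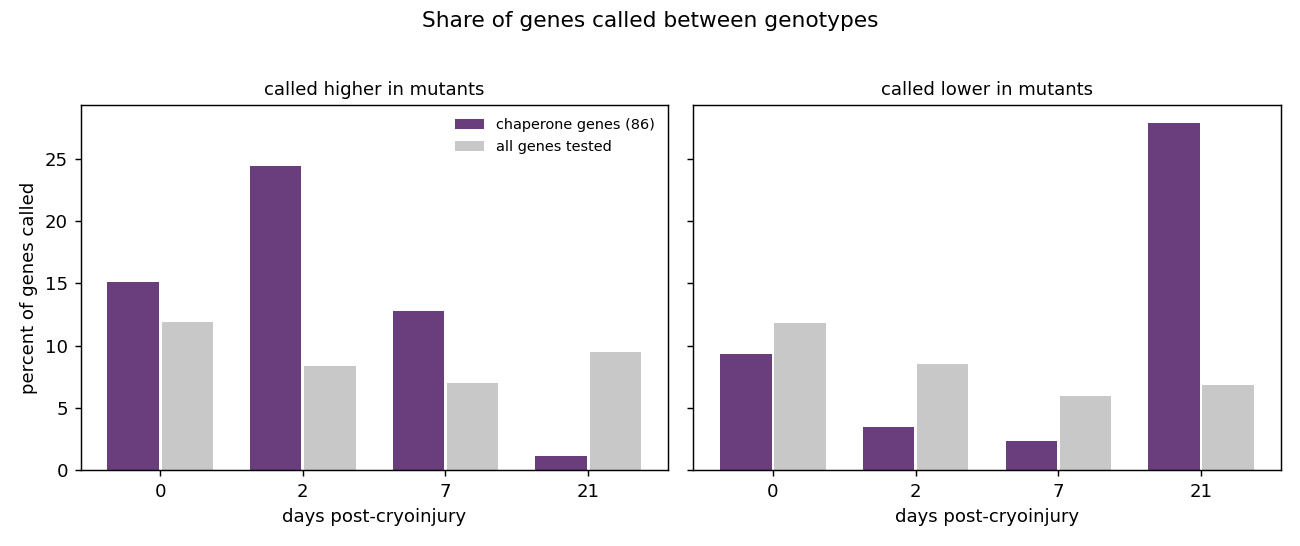
Percent of genes called higher (left) or lower (right) in mutants than in wild type at each day, for the 86 chaperone genes and for all 18949 genes tested. The chaperone share called higher was 24.4% at 2 dpci against 8.35% of all genes, and the share called lower was 27.9% at 21 dpci against 6.83%.

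The median log2FC of the 86 genes, mutant over wild type, over 0, 2, 7 and 21 dpci was 0.0715, 0.189, 0.0224 and −0.253, beside medians of 0.0148, 0.0213, 0.000274 and 0.0175 over all genes tested. At 21 dpci only 19 of the 86 had a fold change above 0. Counts of calls differed between the families, and this was not tested. Of the 15 Hsp70 genes, mutants had 4 higher and 2 lower (hspa4a and hspa14) before injury, where 11.9% and 11.8% of all genes were called in these directions. After injury 7 were higher at 2 dpci (background 8.35%) and 5 at 7 dpci (background 7.03%), and 6 were lower at 21 dpci (background 6.83%). The 4 higher before injury were hsp70.1, hsp70.2, hsp70.3 and hsp70l, which were also among the higher genes at 2 and 7 dpci. Because the sequences of these copies may share reads, their calls may not be separate ones. Of the 31 DnajC genes, mutants had 3 higher and 5 lower before injury, 2 were higher and 3 lower at 2 dpci, 2 were lower at 7 dpci and 2 were lower by 21 dpci, beside the same backgrounds. No call was made at any of the 4 days for 45 of the 86 genes (52.3%, against 56.6% of all genes tested), while 14 genes (16.3%, against 5.1%) were higher at one day and lower at another. Those 14 were hspb6, hspb8, hsp70.1, hsp70.3, hspa1b, hspa4a, hsp90aa1.1, hsp90aa1.2, dnaja1, dnajb4, dnajb5, dnajb9b, bag2 and bag3, and each of them was lower in mutants at 21 dpci.

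**Figure D2:**
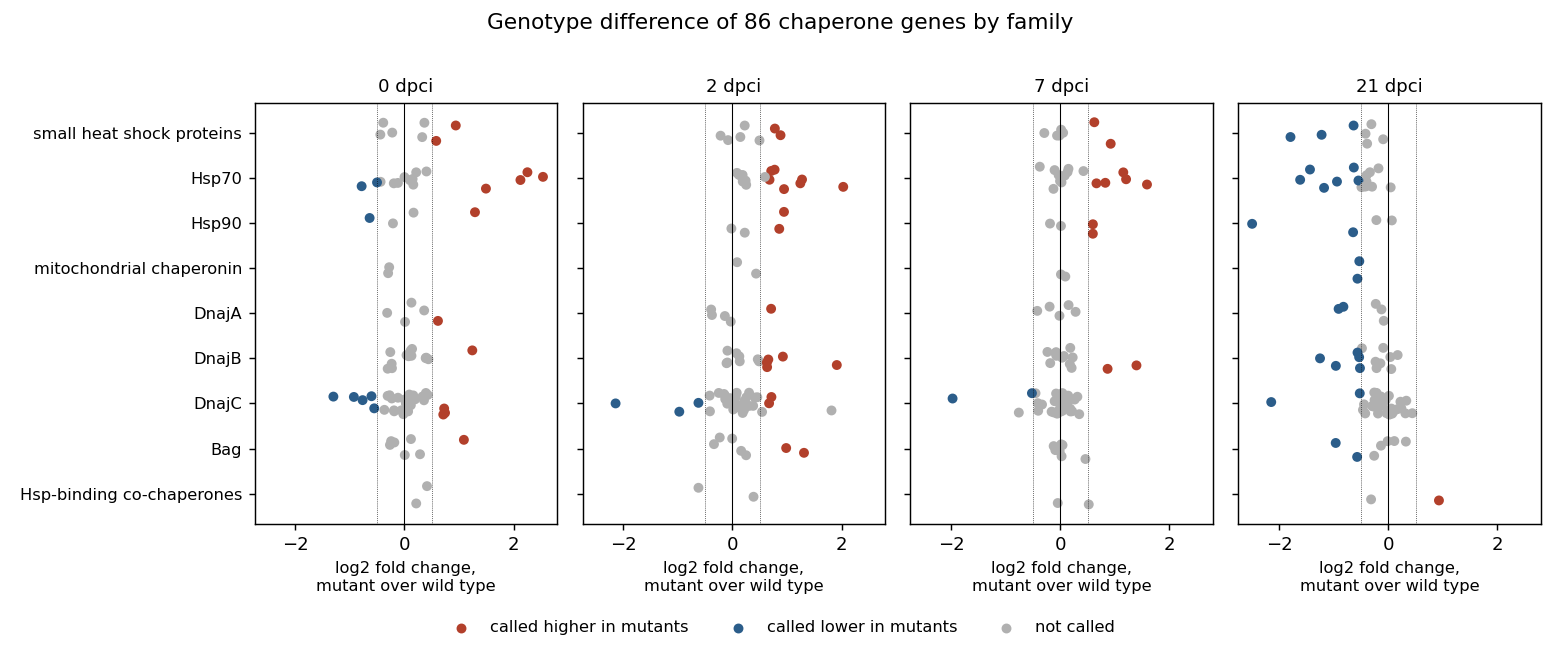
Log2FC of mutant over wild type for each of the 86 genes (points), by family (rows) and day (panels), with dotted lines at −0.5 and 0.5. Red points were called higher in mutants, blue points lower and grey points not called. Called genes sit on the right at 2 and 7 dpci apart from a few DnajC genes, and on the left at 21 dpci apart from hspbap1 at 0.93.

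The stress-inducible Hsp70 copies, which encode the cytosolic Hsp70 that cells make after heat or protein damage, showed the greatest differences between uninjured hearts. At 0 dpci hsp70l was at 51.0 and 54.1 CPM in mutants and at 11.3 and 10.7 CPM in wild type, a log2FC of 2.25 (standard error 0.0843, edgeR adjusted p = 5.06e-36). For hsp70.2 the values at 0 dpci were 18.1 and 17.6 CPM in mutants and 2.69 and 3.47 CPM in wild type, a log2FC of 2.54 (standard error 0.136, edgeR adjusted p = 6.77e-27). Mutant samples were thus several times above wild-type samples for both copies, with no overlap. The other copies were higher too at 0 dpci, by log2FC values of 2.12 for hsp70.1 and 1.49 for hsp70.3 (edgeR adjusted p = 1.79e-10 and 8.48e-11). In bulk tissue, a change in the RNA per cell and a change in the share of cells that make it cannot be told apart.

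The excess of hsp70l persisted after injury and then ended. It was at 27.3 and 29.7 CPM in mutants against 6.45 and 7.51 CPM in wild type at 2 dpci, and at 33.8 and 40.3 CPM in mutants against 13.2 and 11.6 CPM in wild type at 7 dpci. The log2FC values were 2.03 and 1.59 (edgeR adjusted p = 2.17e-27 and 5.76e-25). By 21 dpci hsp70l was at 34.4 and 34.8 CPM in mutants and at 44.0 and 43.3 CPM in wild type, a log2FC of −0.34 that is under the fold limit. The 21 dpci mutant level was therefore close to the 7 dpci mutant level, while the wild-type level was far above its own earlier values.

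Because hsp70.1, hsp70.2 and hsp70.3 are neighbours on chromosome 3 of the RefSeq assembly GRCz12tu and their sequences may share reads, the 4 copies were also summed. Over 0, 2, 7 and 21 dpci the sum in mutants was 80.3 and 84.0, 45.2 and 48.6, 64.7 and 71.0, and 59.4 and 59.9 CPM. In wild type it was 17.3 and 18.0, 15.4 and 17.3, 26.8 and 25.8, and 82.2 and 82.4 CPM over the same days. The log2FC values of the sum were 2.22, 1.52, 1.37 and −0.46. Mutants thus varied less over the 4 days than wild type did. The weakest copy, hsp70.1, had 0.634 to 7.16 CPM over all samples, and its excess at 2 and 7 dpci (log2FC values of 0.95 and 0.82) depended on single samples. Without mutant 2 dpci sample 2 or wild-type 2 dpci sample 1 the log2FC at 2 dpci was 0.61 or 0.47 (edgeR adjusted p = 0.3 and 0.363). Without mutant 7 dpci sample 1 or wild-type 7 dpci sample 2 it was 0.75 or 0.53 at 7 dpci (edgeR adjusted p = 0.156 and 0.319).

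Of the other cytosolic Hsp70 genes, hspa1b was not called at 0 dpci, with 13.0 and 11.9 CPM in mutants against 11.6 and 10.8 CPM in wild type (log2FC 0.15). It was higher in mutants at 2 and 7 dpci, by log2FC values of 1.28 and 0.66, and lower at 21 dpci, at 3.91 and 3.74 CPM in mutants against 9.39 and 11.4 CPM in wild type (log2FC −1.43, edgeR adjusted p = 1.66e-11). The constitutive hspa8, which encodes the Hsc70 of unstressed cells, moved much less. It was at 1064 and 1064 CPM in mutants against 1222 and 1214 CPM in wild type at 0 dpci, and at 1113 and 1151 CPM in mutants against 1488 and 1493 CPM in wild type at 21 dpci. Its log2FC values over the 4 days were −0.20, 0.19, −0.03 and −0.40, all under the fold limit.

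Hsp110 proteins are Hsp70 relatives that exchange its nucleotide, and hspa4a, which encodes one of them, changed sign between days. At 0 dpci it was at 152.2 and 153 CPM in mutants and 265 and 260.3 CPM in wild type, a log2FC of −0.78 (standard error 0.0413, edgeR adjusted p = 2.14e-27). By 2 dpci hspa4a was at 145 and 150.2 CPM in mutants and 88.5 and 84.2 CPM in wild type (log2FC 0.77, edgeR adjusted p = 3.49e-24). At 21 dpci it was at 55.7 and 51.9 CPM in mutants and 162 and 168 CPM in wild type (log2FC −1.61, edgeR adjusted p = 1.84e-41). In wild type the gene fell by 1.61 on the log2 scale at 2 dpci relative to 0 dpci, and in mutants the same contrast was −0.05 and was not called. Its paralog hspa4b had log2FC values between 0.04 and 0.19 over the 4 days and no call. A further Hsp70 gene, hspa14, whose product sits at the ribosome in mammals, was lower in mutants at 0 dpci and 21 dpci, with log2FC values of −0.50 and −0.94.

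Among the 4 Hsp90 genes, both alpha copies were called between genotypes, and the constitutive hsp90ab1 was not. hsp90aa1.1, which in zebrafish works with Unc45b in the folding of muscle myosin, was at 194 and 196 CPM in mutants and 1102 and 1090 CPM in wild type at 21 dpci. Among the 86 genes this was the largest difference at 21 dpci, a log2FC of −2.49 (standard error 0.0362, edgeR adjusted p = 6.5e-62). Over 0, 2 and 7 dpci hsp90aa1.1 in mutants was at 489 and 509.6, 166 and 171, and 195 and 191 CPM. In wild type it was at 574 and 581, 90.3 and 84.4, and 128 and 128 CPM over these days. The log2FC values were −0.21, which was not called, then 0.95 and 0.60, which were. The 3 injured mutant groups were thus close to each other, while wild type was lowest at 2 dpci and highest at 21 dpci.

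The neighbouring copy hsp90aa1.2 was higher in mutants before injury, at 121 and 117 CPM against 49.2 and 47.9 CPM in wild type (log2FC 1.29, edgeR adjusted p = 1.57e-34). It remained higher at 2 and 7 dpci by 0.86 and 0.60 and was lower at 21 dpci (log2FC −0.64). Summing both alpha copies gave log2FC values of −0.02 at 0 dpci, 0.92 at 2 dpci, 0.60 at 7 dpci and −2.21 at 21 dpci, so the sum followed hsp90aa1.1. By contrast hsp90ab1, the constitutive cytosolic copy, ranged from 2238 to 3309 CPM over all 16 samples, and its log2FC values between genotypes lay between −0.22 and 0.17.

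**Figure D3:**
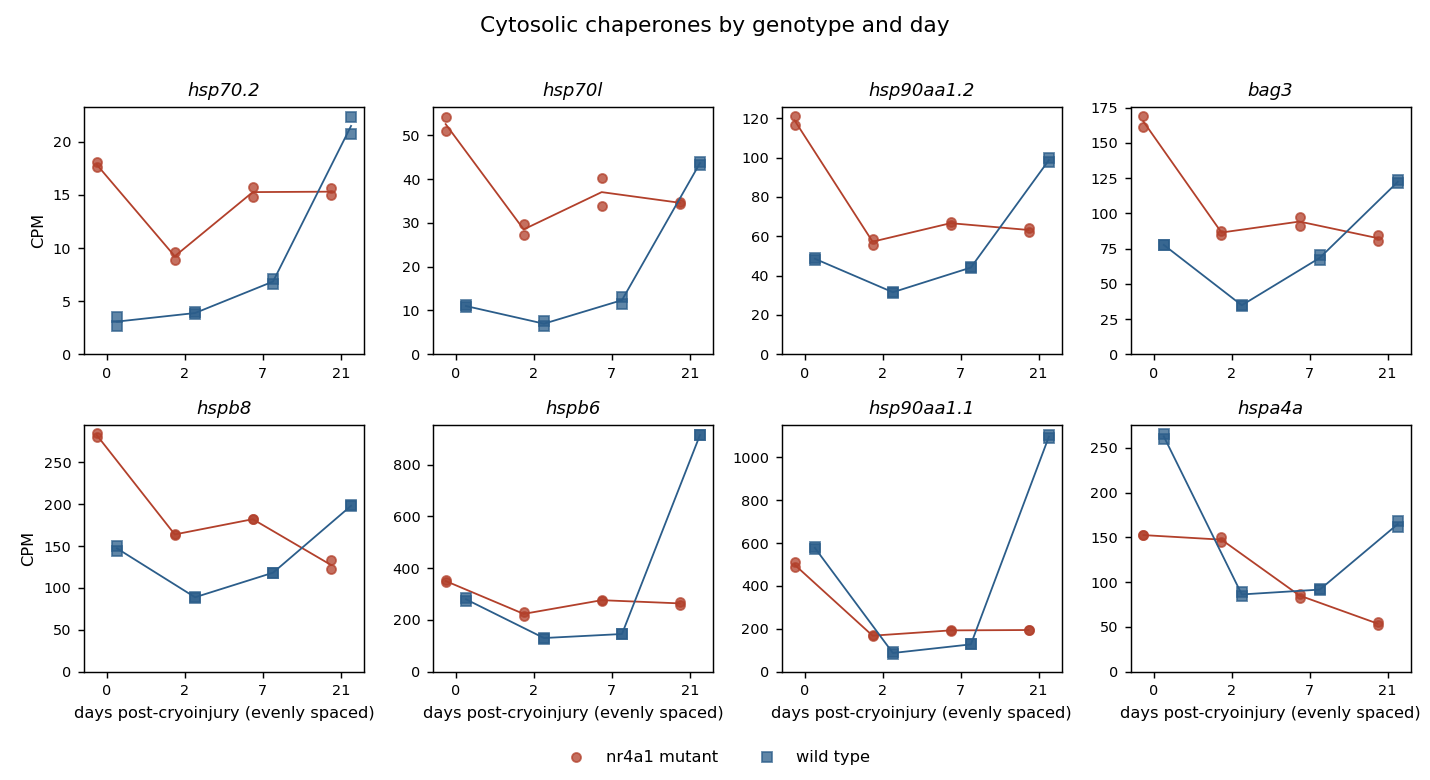
CPM of 8 cytosolic chaperone genes in each sample of nr4a1 mutants (red circles, left) and wild type (blue squares, right) by day, with lines through the means of 2 samples and days spaced evenly. For hsp70l, hsp70.2, hsp90aa1.2, bag3 and hspb8 the mutant samples were above wild type at 0, 2 and 7 dpci and below it at 21 dpci, and for hsp90aa1.1 the wild-type samples reached 1102 and 1090 CPM at 21 dpci.

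Bag3 is the co-chaperone that links Hsp70 to small heat shock proteins and directs damaged sarcomere proteins to autophagy. The study's primer list holds a qPCR pair for bag3, and that pair is shown here. Both primers are written 5′ to 3′.
bag3-qP5: cttgccatcccagcttagc
bag3-qP3: gtgtgtccaatatgttgctgc
The primers are 19 and 21 bases long. No genome of the files' build was used here, so they were not placed on it.

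In the RNA-seq counts bag3 was at 169 and 162 CPM in mutants and 77.5 and 77.8 CPM in wild type at 0 dpci, a log2FC of 1.09 (standard error 0.0464, edgeR adjusted p = 1.15e-32). By 2 dpci bag3 was at 87.8 and 85.0 CPM in mutants and 34.5 and 35.1 CPM in wild type (log2FC 1.31, edgeR adjusted p = 7.04e-32). At 7 dpci the values were 97.7 and 90.7 CPM in mutants and 66.6 and 70.25 CPM in wild type, and the log2FC of 0.46 was under the limit. The order was reversed at 21 dpci, with 80.5 and 84.5 CPM in mutants and 124 and 121 CPM in wild type (log2FC −0.57, edgeR adjusted p = 1.61e-16). Samples of the genotypes did not overlap on any of the 4 days.

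hspb8, the small heat shock protein that binds Bag3, had the same order of genotypes on each day. It was at 285 and 280 CPM in mutants against 150.3 and 144 CPM in wild type at 0 dpci, and at 122 and 133 CPM in mutants against 197 and 199 CPM in wild type at 21 dpci. The log2FC values were 0.94, 0.88, 0.62 and −0.64 at 0, 2, 7 and 21 dpci, and all 4 were called (edgeR adjusted p = 1.18e-32, 3.97e-28, 7.68e-21 and 1.09e-21). The sign of the log2FC therefore changed between 7 and 21 dpci for hspb8 and for bag3, whose 7 dpci value was under the limit.

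The other small heat shock proteins of muscle split into those that moved with these genes and those that did not. hspb6, which encodes the Hsp20 of heart muscle, was at 269 and 259 CPM in mutants and 916 and 913 CPM in wild type at 21 dpci (log2FC −1.79, edgeR adjusted p = 1.68e-52), after being higher in mutants by 0.78 at 2 dpci and 0.92 at 7 dpci. hspb11, a muscle gene in zebrafish, was at 507 and 504 CPM in mutants and 1184 and 1172 CPM in wild type at 21 dpci (log2FC −1.22, edgeR adjusted p = 4.01e-45). hspb1 and hspb7 did not pass the fold limit on any day. hspb1, the Hsp27 gene, had log2FC values between −0.22 and 0.23, and hspb7, a cardiac small heat shock protein, between −0.44 and −0.08. hspb2, which is expressed in heart and muscle, was higher in mutants at 0 dpci only, by 0.58.

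J-domain proteins hand clients to Hsp70, and some of the cytosolic ones shared its direction on some days. Others, such as dnaja2a, dnajb6a and dnajc7, were called on no day. dnajb5, an Hsp40 gene, was at 6.22 and 5.65 CPM in mutants and 2.19 and 2.82 CPM in wild type at 0 dpci, and at 6.18 and 5.10 CPM in mutants and 1.80 and 1.18 CPM in wild type at 2 dpci. The log2FC values were 1.24 and 1.91 (edgeR adjusted p = 7.36e-07 and 7.58e-10). At 7 dpci dnajb5 was not called, at 4.59 and 4.62 CPM in mutants and 5.09 and 4.66 CPM in wild type. By 21 dpci its log2FC was −0.96 (edgeR adjusted p = 0.00885). dnaja1, the type I partner of Hsc70, was higher in mutants at 0 and 2 dpci by 0.61 and 0.71 and lower at 21 dpci (log2FC −0.82). dnajb4, a further Hsp40 gene, was higher at 2 dpci by 0.64 and lower at 21 dpci (log2FC −0.52). dnajb1b, one of the Hsp40 genes that heat induces, was higher at 2 dpci only, by 0.66, while its paralog dnajb1a had log2FC values of 0.40, 0.49, 0.17 and −0.48, all under the limit.

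Other J-domain genes were lower in mutants at 21 dpci without having been higher before. dnaja3a, which encodes a mitochondrial J protein, was at 33.2 and 35.8 CPM in mutants and 61.5 and 68.1 CPM in wild type (log2FC −0.91, edgeR adjusted p = 1.11e-19). dnajb6b, which keeps aggregation-prone proteins soluble, was at 222 and 226 CPM in mutants and 328 and 321 CPM in wild type (log2FC −0.53), and dnajb2 was lower (log2FC −0.56). For dnaja3a and dnajb6b, the 21 dpci wild-type samples were the highest or among the highest of the 16.

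Among the DnajC genes, which hold the most diverse J proteins, dnajc16 was lower in mutants at each of the 4 days. It was the only chaperone gene with this pattern, a share of 1.16% against 0.617% of all genes tested. No chaperone gene was higher at all 4 days (background 0.697%). A count of 1 gene does not set the chaperone genes apart from all genes. In mammals the product of dnajc16 is a J protein of the endoplasmic reticulum. Over 0, 2, 7 and 21 dpci dnajc16 in mutants was at 0.949 and 1.02, 0.35 and 0.35, 0.516 and 0.633, and 0.149 and 0.759 CPM. In wild type it was at 2.27 and 2.61, 1.43 and 1.70, 1.42 and 2.94, and 2.06 and 1.97 CPM. The log2FC values were −1.30, −2.14, −1.97 and −2.14 (edgeR adjusted p = 0.00137, 0.000189, 8.78e-05 and 3.7e-05). Samples did not overlap on any day, but this was a condition for naming the gene, and its level was low. Without wild-type 7 dpci sample 2 the value at 7 dpci was −1.30 and did not pass the adjusted p limit. At 21 dpci it was −1.40 without mutant sample 1 and −3.71 without mutant sample 2 (edgeR adjusted p = 0.0198 and 8.77e-06). Its paralog dnajc16l had log2FC values between −0.19 and 0.33.

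Further DnajC genes were lower in mutants on some days. dnajc19, a part of the mitochondrial import motor, was at 7.93 and 7.70 CPM in mutants and 15.4 and 15.2 CPM in wild type at 2 dpci (log2FC −0.97), and lower at 21 dpci (log2FC −0.52). dnajc14, whose product is an endoplasmic reticulum membrane protein in mammals, was lower at 0 dpci (log2FC −0.93, edgeR adjusted p = 2.27e-06). dnajc11b was lower at 0 dpci as well (log2FC −0.60), but without mutant sample 1 its value was −0.44, short of the fold limit. dnajc27, a small GTPase with a J domain, was lower at 0, 2 and 7 dpci (log2FC −0.77, −0.62 and −0.52). The 2 dpci call for dnajc27 ended without mutant sample 2 or wild-type sample 2 (−0.43 and −0.55, edgeR adjusted p = 0.165 and 0.0637), and leaving out any of the 4 samples ended that at 7 dpci (−0.45 to −0.57). The DnajC genes higher at 0 dpci were dnajc17, a splicing factor gene, dnajc24, which acts in diphthamide synthesis, and dnajc25, by 0.74, 0.73 and 0.71. Higher at 2 dpci were dnajc2, which acts at the ribosome, and dnajc21, which acts in ribosome assembly, by 0.67 and 0.72.

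The Bag family beyond bag3 was little changed apart from bag2, whose product inhibits the ubiquitin ligase that works with Hsp70. bag2 was at 19.8 and 24.3 CPM in mutants and 10.2 and 12.1 CPM in wild type at 2 dpci (log2FC 0.99, edgeR adjusted p = 3.97e-12), and at 15.6 and 13.0 CPM in mutants and 29.9 and 25.5 CPM in wild type at 21 dpci (log2FC −0.96, edgeR adjusted p = 4.59e-13). bag1, the first Bag protein known to release nucleotide from Hsp70, had log2FC values between −0.34 and 0.12, and bag6, which guards newly made membrane proteins, between −0.26 and 0.25. The 1 gene that was higher in mutants at 21 dpci was hspbap1, which encodes a protein that binds a small heat shock protein. It was at 4.01 and 4.55 CPM in mutants and 1.95 and 2.57 CPM in wild type (log2FC 0.93, edgeR adjusted p = 0.00302), and without wild-type 21 dpci sample 1 the value was 0.74 (edgeR adjusted p = 0.0861).

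**Figure D4:**
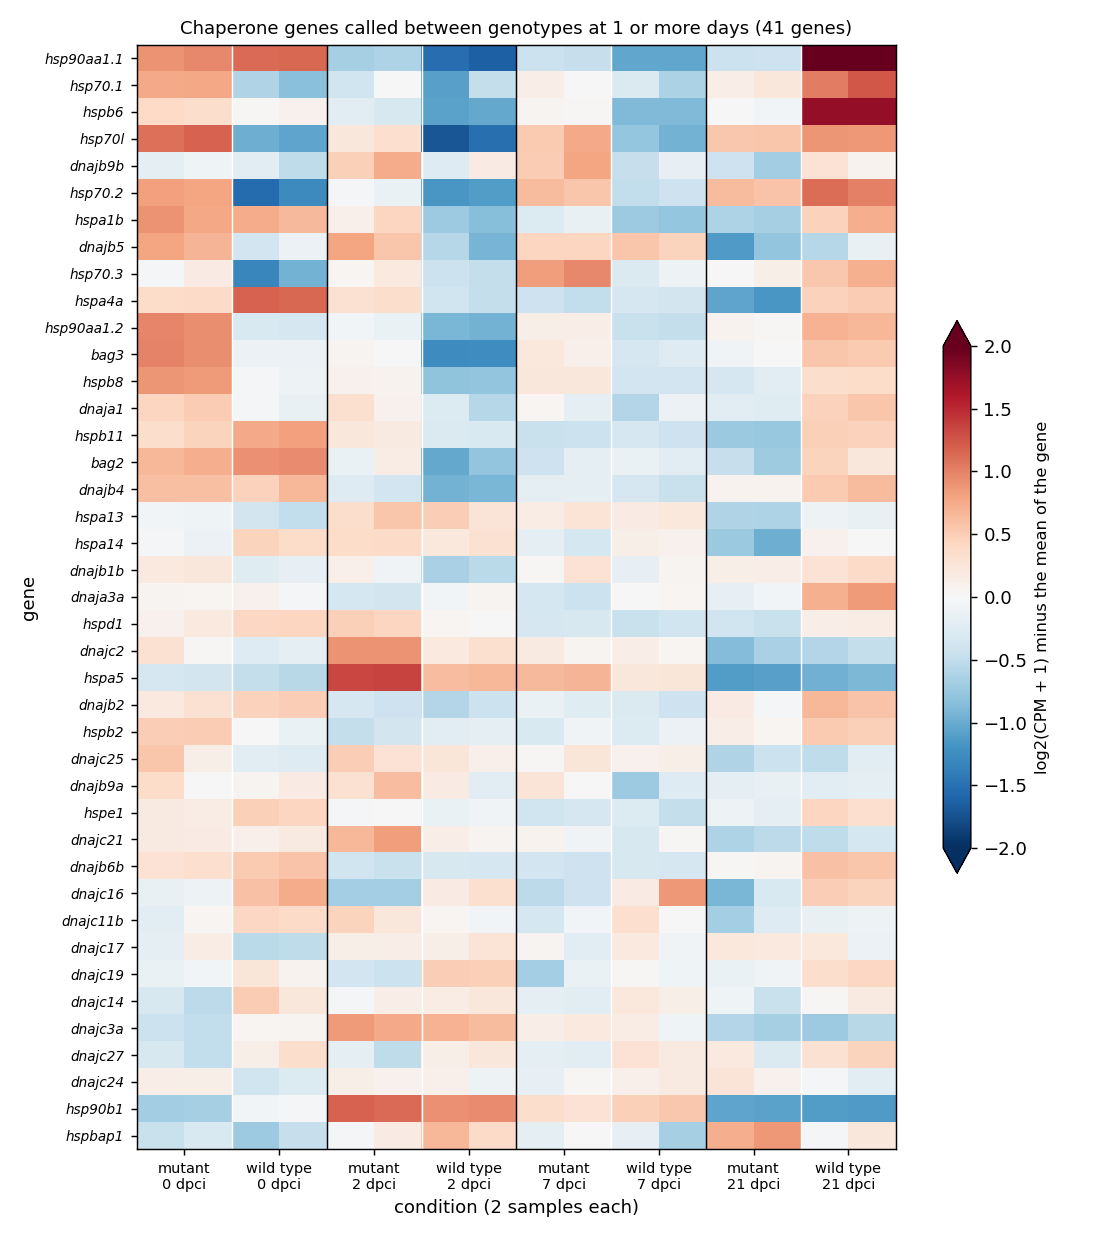
Log2(CPM + 1) minus the mean of the gene, for the 41 chaperone genes called between genotypes at 1 or more days (rows) in the 16 samples (columns, 2 for each condition, mutants left of wild type at each day), with colours limited at −2 and 2. Rows are ordered by the mean log2FC at 0, 2 and 7 dpci minus that at 21 dpci. The upper rows are red in mutants at 0 dpci, blue in wild type at 2 dpci and red in wild type at 21 dpci, a pattern that the ordering in part sets.

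Several chaperone genes of the endoplasmic reticulum, where secreted and membrane proteins fold, namely hspa5, hsp90b1, dnajb11, dnajc3a and dnajc3b, had their highest mean at 2 dpci in both genotypes. Others of that compartment did not, as dnajc10 in wild type was at 18.9 and 17.3 CPM at 2 dpci and 20.02 and 21.4 CPM at 7 dpci, and the low dnajc16 had its lowest wild-type mean at 2 dpci. hspa5, the BiP gene, was at 604 and 613 CPM in mutants and 366 and 377 CPM in wild type at 2 dpci, a log2FC of 0.71 (standard error 0.0355, edgeR adjusted p = 2.42e-28). It was at 189 and 186 CPM in mutants and 172 and 163 CPM in wild type at 0 dpci, and at 109.5 and 112 CPM in mutants and 123 and 128 CPM in wild type at 21 dpci. The genotypes were thus close before injury and at 21 dpci and apart at the peak.

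hsp90b1, the Grp94 gene, was lower in mutants before injury, at 128 and 131 CPM against 199.7 and 203 CPM in wild type (log2FC −0.64, edgeR adjusted p = 1.03e-23). At 2 dpci it was at 473 and 457 CPM in mutants and 394 and 400.3 CPM in wild type, a log2FC of 0.23 under the limit. Relative to 0 dpci it rose at 2 dpci by 1.84 in mutants and 0.98 in wild type on the log2 scale, and the difference between these of 0.87 was called (standard error 0.0531, edgeR adjusted p = 2.26e-23). The same difference of rises was 0.55 for hspa5, 0.72 for dnajb11 (the ERdj3 gene), 0.69 for dnajc3a and 0.51 for dnajc3b (both p58IPK genes), and 0.58 for dnajc10 (a disulfide reductase with a J domain), and all were called. dnajc3a was lower in mutants at 0 dpci (log2FC −0.55, edgeR adjusted p = 6.93e-05). Between genotypes at 2 dpci, dnajb11, dnajc3a, dnajc3b and dnajc10 were not called, with a log2FC of 0.14 for dnajc3a. The difference of rises subtracts the 0 dpci difference, so it also holds the lower mutant levels of hsp90b1 and dnajc3a at 0 dpci.

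The ERdj4 genes, dnajb9a and dnajb9b, were counted at 0.708 to 4.40 CPM. dnajb9b was higher in mutants at 2 and 7 dpci, by 0.93 and 1.40, and lower at 21 dpci (log2FC −1.25), and dnajb9a was higher at 2 and 7 dpci by 0.63 and 0.87. At these levels single samples decided several calls. Without mutant sample 2 or wild-type sample 1 the value of dnajb9b at 2 dpci was 0.73 or 0.64 (edgeR adjusted p = 0.133 and 0.17), and without mutant sample 2 or wild-type sample 1 its value at 21 dpci was −0.98 or −1.08 (edgeR adjusted p = 0.0767 and 0.0586). For dnajb9a the value at 2 dpci was 0.41 without mutant sample 2 and 0.40 without wild-type sample 2 (edgeR adjusted p = 0.372 and 0.35), while the 7 dpci value was 0.69 without mutant sample 1 and 0.59 without wild-type sample 1 (edgeR adjusted p = 0.182 for each).

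In mitochondria, hspd1 and hspe1 encode the Hsp60 and Hsp10 subunits of the folding chamber and are neighbours on chromosome 9 of GRCz12tu. hspd1 was at 116 and 113 CPM in mutants and 168 and 171 CPM in wild type at 21 dpci (log2FC −0.56, edgeR adjusted p = 9.57e-19). For hspe1 the values were 73.7 and 70.15 CPM in mutants and 107 and 100.3 CPM in wild type (log2FC −0.53, edgeR adjusted p = 1.23e-13), which was −0.495 without mutant sample 2 and −0.48 without wild-type sample 1, both short of the fold limit. On the other 3 days their log2FC values lay between −0.30 and 0.43. hspa9, the mitochondrial Hsp70 gene, had −0.12, 0.25, 0.13 and −0.30 at 0, 2, 7 and 21 dpci.

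**Figure D5:**
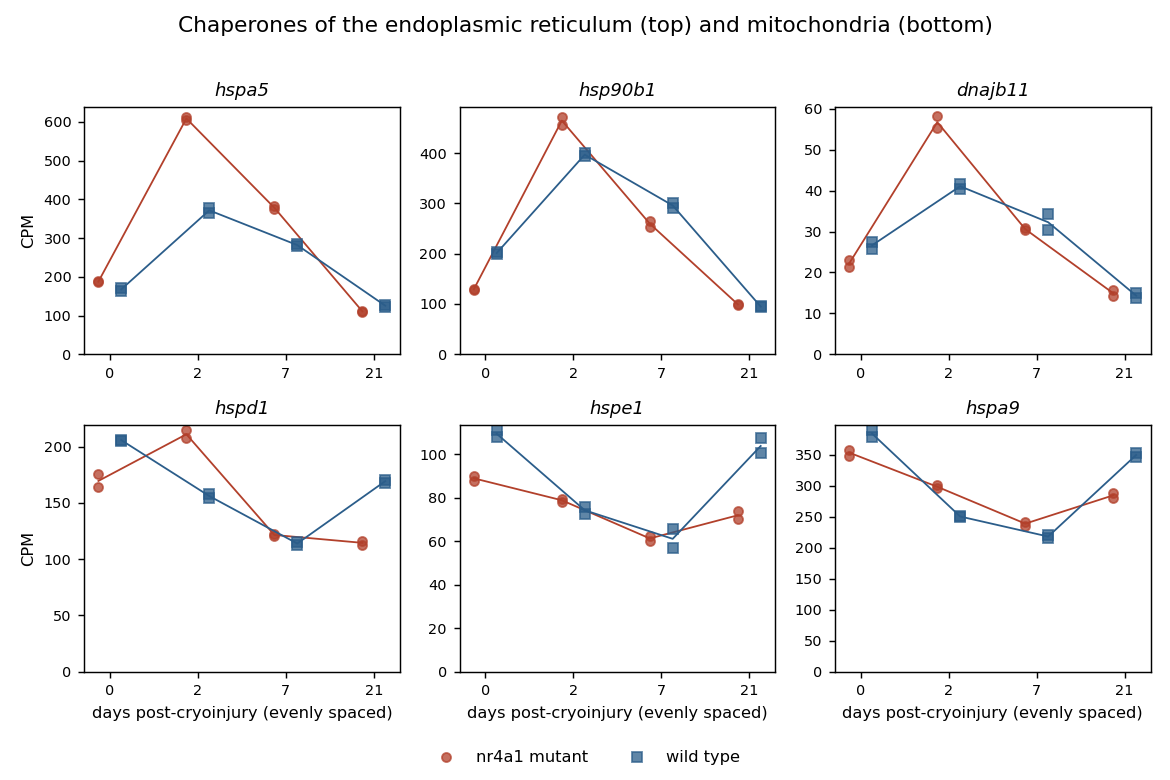
CPM in each sample of nr4a1 mutants (red circles, left) and wild type (blue squares, right) by day for 3 chaperone genes of the endoplasmic reticulum (top) and 3 of mitochondria (bottom), with lines through the means of 2 samples and days spaced evenly. The top genes peak at 2 dpci in both genotypes, with hspa5 at 604 and 613 CPM in mutants and 366 and 377 CPM in wild type, and hspd1 and hspe1 are lower in mutants at 21 dpci.

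Within each genotype, more of the chaperone genes fell than rose at 2 and 7 dpci. In mutants at 2 dpci relative to 0 dpci, 17 of the 86 genes rose (background 24.4%) and 25 fell (background 20.8%), and in wild type 14 rose (background 22.9%) and 27 fell (background 19%). At 7 dpci relative to 0 dpci, 8 rose (background 20.2%) and 22 fell (background 13.4%) in mutants, and 8 rose (background 20.3%) and 19 fell (background 13%) in wild type. Among the genes that fell at 2 dpci were hsp90aa1.1 (log2FC −1.57 in mutants and −2.73 in wild type) and bag3 (−0.94 in mutants and −1.16 in wild type). hspb7 fell too (−0.61 in mutants and −0.97 in wild type). So did the low hspa8b (−1.87 in mutants and −2.25 in wild type), at 0.720 to 4.92 CPM over all samples. The genes that rose included hspa5, hsp90b1, dnajb11, dnajc3a and dnajc3b in both genotypes. In wild type the largest rises were those of hspbap1 (1.74) and dnajc5ab (1.30), and dnajc17 (1.01) and dnajc9 (0.92) rose as well. In mutants hspa8 also rose, by 0.85, and in wild type its change was 0.46, under the limit.

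From 2 to 7 dpci fewer genes moved. In mutants at 7 dpci relative to 2 dpci, 3 rose (background 11.4%) and 15 fell (background 10.5%), and in wild type 9 rose (background 12.4%) and 7 fell (background 11%). Genotypes then parted. In mutants at 21 dpci relative to 7 dpci, 3 rose (background 12.8%) and 19 fell (background 17%), with a median log2FC of −0.0306 over the 86 genes and 0.0213 over all genes. In wild type, 33 rose (background 16.6%) and 12 fell (background 20.5%), with a median of 0.396 over the 86 genes and −0.00888 over all genes. The largest rises in wild type were those of hsp90aa1.1 (log2FC 3.10), hspb6 (2.65) and hsp70.1 (2.14), whose values for mutants were 0.01, −0.07 and 0.14.

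Relative to 0 dpci, 3 of the 86 genes were higher at 21 dpci in mutants (background 13.1%) and 22 were lower (background 6.92%), while in wild type 19 were higher (background 13.4%) and 10 were lower (background 10%). In wild type hsp70.2 was at 22.3 and 20.7 CPM at 21 dpci against 2.69 and 3.47 CPM at 0 dpci (log2FC 2.81, edgeR adjusted p = 9.64e-30), and hspb6 was higher by 1.71. In mutants the same contrasts were −0.22 and −0.41 and were not called. dnajb5 fell by 2.36 and hspb8 by 1.15 in mutants at 21 dpci relative to 0 dpci. The genes lower at 21 than at 0 dpci in wild type included hsp90b1 and dnajb11, by 1.09 and 0.89 on the log2 scale.

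The difference between the genotypes' responses was tested as the mutant to wild-type log2FC on a later day minus that at 0 dpci, 3 contrasts that share the 0 dpci samples. At 2 dpci, 18 of the 86 genes had a positive difference (background 11%) and 8 a negative one (background 11.2%). At 7 dpci, 4 were positive (background 7.3%) and 8 negative (background 6.86%). At 21 dpci, 4 were positive (background 12.6%) and 26 negative (background 11.4%). The most negative at 21 dpci were hsp70.1 (−3.30, standard error 0.348), hsp70.2 (−3.03, standard error 0.175) and hsp70l (−2.59, standard error 0.114), with edgeR adjusted p of 8.66e-13, 5.67e-25 and 1.2e-31. hsp90aa1.1, dnajb5, hsp70.3 and hspb6 followed with −2.28, −2.20, −2.12 and −2.12. The positive differences at 21 dpci included hsp90b1 (0.70) and dnajc3a (0.57).

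Genes of the same pathway outside the symbol rule were taken from lists. Of 4 heat shock factor genes listed, hsf1 and hsf2 were tested. hsf1, the main activator of the heat shock response, was at 119 and 116 CPM in mutants and 73.4 and 73.9 CPM in wild type at 0 dpci (log2FC 0.67), and its values on the later days were 0.15, 0.28 and 0.19, under the limit. hsf2, which forms mixed trimers with Hsf1, was at 28.2 and 31.7 CPM in mutants and 15.3 and 13.5 CPM in wild type at 0 dpci, and at 29.3 and 26.4 CPM in mutants and 48.7 and 49.8 CPM in wild type at 21 dpci. Its log2FC values were 1.06, 0.15, 1.65 and −0.82 at 0, 2, 7 and 21 dpci. The sign of its log2FC thus changed between 7 and 21 dpci, as for bag3 and hspb8, but the genes differed on other points. At 2 dpci hsf2 was not called, while bag3 (1.31) and hspb8 (0.88) were. At 7 dpci hsf2 had its largest value and bag3 was not called (0.46).

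Of 18 cytosolic co-chaperones outside the rule, mutants had 4 higher (background 11.9%) and 1 lower (background 11.8%) before injury. After it, 5 were higher (background 8.35%) and 1 lower (background 8.5%) at 2 dpci, 3 were higher at 7 dpci (background 7.03%), and 5 were lower by 21 dpci (background 6.83%). unc45b, the myosin chaperone that works with Hsp90 in muscle, was at 494 and 488 CPM in mutants and 279.6 and 272 CPM in wild type at 0 dpci, and at 326 and 315 CPM in mutants and 459 and 453 CPM in wild type at 21 dpci. Its log2FC values were 0.83, 0.60, 0.66 and −0.51, all 4 called. ahsa1a, an activator of the Hsp90 ATPase, was higher in mutants at 0, 2 and 7 dpci by 0.83, 1.22 and 1.04 and at 21 dpci had −0.01. hsph1, the inducible Hsp110 gene, was lower in mutants at 21 dpci, at 8.67 and 8.29 CPM against 23.2 and 23.1 CPM in wild type (log2FC −1.45). fkbp5 was higher in mutants at 0 and 7 dpci by 0.76 and 1.56, with 0.21 and 0.27 at 2 and 21 dpci. cdc37l1 was lower at 0 dpci (−0.78), and cryabb was lower at 2 and 21 dpci (−0.66 and −0.59). ahsa1b was higher at 0 and 2 dpci by 0.84 and 0.75 and lower at 21 dpci (−0.76). chordc1a and cdc37 were higher at 2 dpci by 0.64 and 0.55, and ptges3a was lower at 21 dpci (−0.61). The 8 subunits of TRiC, the cytosolic chaperonin that folds actin and tubulin, stayed between −0.36 (cct2 at 21 dpci) and 0.30 (cct7 at 0 dpci).

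Of 20 genes of endoplasmic reticulum folding and stress, 7 were lower in mutants at 0 dpci (background 11.8%, median log2FC −0.352), among them pdia6 (−0.72), pdia4 (−0.61), both disulfide isomerases, and hyou1 (−0.56), the Hsp110 of that compartment. At 2 dpci 3 were higher (background 8.35%), xbp1 (0.85) and ddit3 (0.68), transcription factors of the unfolded protein response, and serpinh1b (0.58), a collagen chaperone gene. For 11 of the 20, the difference at 2 dpci minus that at 0 dpci was positive and called (background 11%). The difference at 21 dpci minus that at 0 dpci was positive and called for 8 of the 20 (background 12.6%). Of 11 genes of mitochondrial quality control, mutants had 2 higher (background 8.35%) and 1 lower (background 8.5%) at 2 dpci, and 3 lower at 21 dpci (background 6.83%). lonp1, a matrix protease gene, was called on both days, with 0.79 at 2 dpci and −0.83 at 21 dpci, and so was yme1l1a, with 0.54 and −0.64. grpel1 was also lower at 21 dpci (log2FC −0.502). clpb, a disaggregase gene, was the gene lower at 2 dpci, with a log2FC of −0.999.

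Other genes moved together with some of the cytosolic chaperones, and their part in these results was not tested. The summed CPM of 8 clock genes, most of which follow the hour of day, over 0, 2, 7 and 21 dpci was 552 and 546, 171 and 169, 395 and 408, and 367 and 388 in mutants. In wild type it was 276 and 270.0, 124 and 132, 153 and 152.2, and 798 and 797. The genotype with the larger clock gene sum thus also had the larger CPM of hsp70l, bag3 and hspb8 on each of the 4 days. Other chaperone genes did not follow this order. At 0 dpci the log2FC was −0.78 for hspa4a, −0.44 for hspb7, −0.22 for hspb1, −0.21 for hsp90aa1.1 and −0.20 for hspa8, and only hspa4a was called. Of the 86 genes, 52, 61, 51 and 19 had a log2FC above 0 at 0, 2, 7 and 21 dpci. In mutants, 6 of the 8 clock genes were higher (background 11.9%) and 2 were lower (background 11.8%) at 0 dpci. At 2 dpci 5 were higher (background 8.35%). At 7 dpci 7 were higher (background 7.03%) and 1 was lower (background 5.94%), and at 21 dpci 6 were lower (background 6.83%). The hour of collection is not given in the sources used here.

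Cell type markers differed as well. The summed CPM of the 6 cardiomyocyte markers tested (of 7 listed) over 0, 2, 7 and 21 dpci was 38780 and 41730, 24030 and 23270, 24990 and 25390, and 36690 and 35570 in mutants. In wild type it was 42260 and 43370, 27330 and 27820, 30240 and 28560, and 43740 and 44170. The mutant sum was thus the smaller one on each day. The median log2FC of these markers was 0.0848, −0.0783, −0.039 and −0.23 at 0, 2, 7 and 21 dpci, so the sum does not describe each marker. Of the 6 markers, 1 was lower in mutants at 2 dpci (background 8.5%) and 1 at 7 dpci (background 5.94%), the only calls between genotypes in this list. The sum of 4 macrophage markers ranged from 81.6 to 360.2 CPM in mutant samples and from 60.9 to 264 CPM in wild-type samples, and the mutant sum was the larger one on each day. In mutants 2 of them were higher at 0 dpci (background 11.9%), 2 at 2 dpci (background 8.35%) and 2 at 7 dpci (background 7.03%). At 21 dpci 3 were higher (background 9.49%). Erythrocyte markers, 5 genes, summed to 1015 and 1011 CPM in mutants against 1994 and 1952 CPM in wild type at 0 dpci and to 1385 and 1425 CPM in mutants against 1214 and 1212 CPM in wild type at 21 dpci. The only calls between genotypes among these genes were 4 lower in mutants at 0 dpci (background 11.8%). The sum of 3 neutrophil markers at 0 dpci was 33.3 and 36.3 CPM in mutants against 10.75 and 10.6 CPM in wild type. Over 2, 7 and 21 dpci it was 36.2 and 33.8, 22.8 and 24.1, and 19.96 and 23.0 CPM in mutants. The wild-type sums on these days were 35.7 and 31.3, 12.1 and 10.97, and 18.4 and 15.6 CPM. All 3 neutrophil markers were higher in mutants at 0 dpci (background 11.9%), 2 at 7 dpci (background 7.03%) and 1 at 21 dpci (background 9.49%). The sum of 4 endothelial markers was 606 to 1038 CPM in mutants and 666 to 1141 CPM in wild type. The sum of 5 fibroblast and epicardial markers at 0 dpci was 479 and 496 CPM in mutants against 797 and 763 CPM in wild type. On the later days it was 1988 to 5193 CPM in mutants and 1599 to 4649 CPM in wild type. In mutants 3 of the 5 were lower at 0 dpci (background 11.8%), 1 was lower at 2 dpci (background 8.5%) and 1 was higher at 21 dpci (background 9.49%). Of 8 immediate early genes, which cells switch on within minutes of a stimulus, 6 were higher in mutants at 0 dpci (background 11.9%). At 2 dpci 5 were higher (background 8.35%), and at 7 dpci 1 was lower (background 5.94%). By 21 dpci 4 were higher (background 9.49%) and 1 lower (background 6.83%). Over 0, 2, 7 and 21 dpci their sum was 509.7 and 501 CPM, 1155 and 1173 CPM, 1900 and 1915 CPM, and 1460 and 1478 CPM in mutants. The wild-type sums were 267 and 269 CPM, 841 and 846 CPM, 2133 and 2168 CPM, and 1047 and 1046 CPM. What these markers contribute to the chaperone values was not tested.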

How the data were processed

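The authors checked reads with FastQC, aligned them with STAR and counted them per gene with featureCounts, and deposited raw counts by gene symbol for 16 samples. Per the submitters' processing notes the builds are GRCz11 and danRer11, while strand setting and handling of reads with several alignments are not given in the sources used here.

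Tests on the deposited counts used edgeR 4.0.16, with DESeq2 1.42.0 and limma 3.58.1, under R 4.3.3. Genes reaching 10 counts in 2 or more samples were scaled by TMM and fitted together (glmQLFit, glmQLFTest) with 1 coefficient per condition. The study states that its own DESeq2 tests took batch effects into account. Which samples formed a batch is not given in the sources used here, so no batch term was fitted. Thresholds (adjusted p 0.05, absolute log2 fold change 0.5) follow the study. The common biological coefficient of variation was 3.42%. Samples of a condition differed by more than sampling noise (chi-square per degree of freedom 1.54 to 2.56 over the chaperone genes). Over 28 pairs of conditions, deviations of samples with one number correlated at −0.0307 to 0.0321 over all genes tested. Across all genes the numbers thus showed no pairing, but this check cannot exclude pairing that touches few genes. The steps were tested on simulated data.

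Members and lists were chosen with earlier results of these data known. Genes to name were taken from a fixed set of well-known members. Per comparison, up to 6 called genes in each direction were added, without overlap of samples and at a mean of at least 1 CPM. Not every such gene is named for every comparison. Other members are named for completeness of a family. All 86 symbols matched RefSeq GRCz12tu, which was used for names and neighbours only.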

Additional observations from a re-analysis of the deposited data

Results flagged for a closer look

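The difference between genotypes itself differed between days, tested in edgeR as the log2FC between genotypes on a later day minus the one before injury. It passed the thresholds for 26 of the 86 chaperone genes when 2 dpci was compared, 12 for 7 dpci and 30 for 21 dpci. At 2 dpci 18 were positive (20.9%, background 11%) and 8 negative (9.3%, background 11.2%). At 7 dpci 4 were positive (4.65%, background 7.3%) and 8 negative (9.3%, background 6.86%), shares near those of all genes. At 21 dpci 4 were positive (4.65%, background 12.6%) and 26 negative (30.2%, background 11.4%). Over any pair of the 4 days, 14 genes (16.3%, against 5.1% of all genes tested) were higher at one day and lower at another. For single pairs of days the share of all genes was not counted. For 1 gene the calls at 0 and 2 dpci had opposite signs: hspa4a, with a difference of 1.56. For 7 genes the calls at 0 and 21 dpci had opposite signs, higher in mutants at 0 dpci and lower at 21 dpci, with differences of −3.3 for hsp70.1, −2.2 for dnajb5, −2.12 for hsp70.3, −1.94 for hsp90aa1.2, −1.66 for bag3, −1.58 for hspb8 and −1.44 for dnaja1. The summed clock genes changed sides between the same days, and their part in these differences was not tested.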

How the results depend on the processing

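Counts of called chaperone genes stayed within 1.5 times their value in each of 182 checks, where a check is 1 comparison under 1 alternative. The alternatives were DESeq2, RLE size factors, no filter on low counts, only the conditions compared in the fit, copies summed, replicate block, and each sample left out. With sample number as a replicate block, 21 genes were called between genotypes at 0 dpci, 24 at 2 dpci, 13 at 7 dpci and 25 at 21 dpci, the counts obtained without it. Leaving out single samples gave, between genotypes, called genes in ranges of 18 to 21 (0 dpci), 22 to 26 (2 dpci), 11 to 14 (7 dpci) and 23 to 26 (21 dpci). Such fits leave 1 sample in an arm, which is assumed to vary like the other conditions. Of 186 called fold changes of named genes, 181 stayed called in DESeq2, and 705 of 744 did over the fits without 1 sample. No fold change changed sign under these alternatives. Those lost in DESeq2 include hsp70.1 at 7 dpci (adjusted p 0.0681). Depth limits genes near 1 CPM, such as hsp70.1, dnajc16 and the dnajb9 genes. Time of day and fish per sample are not given and cannot be told apart from genotype and day. The batches of the study are not given either, and their part was not tested. Promoter and protein sequences were not used here.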
